A study of Mus musculus with 9 samples.

Results

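Of 26536 array probes for RefSeq coding transcripts (accessions that start with NM_, covering 20026 genes), 6 were read above background in nearly every control library and in no library of DNMT3A R882H cells. They stood for 6 genes with 1 probe each, and those described below are Dab2, Aldh3b1, Lyst, Vwa5a and Doc2g. They were chosen by their detection calls. The scanner software had to mark the spot as well above background on at least 5 of the 6 arrays of empty vector (EV) and wild-type (WT) cells, together called the controls, and on 0 of the 3 arrays of R882H cells. Because the contrast of R882H with the controls selected the members, its values are a description here and carry no test. The word lost refers only to this call, and all 6 transcripts were close to the limit of detection in the controls too.

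The cells were mouse LSK cells, the lineage-negative, Sca-1 and Kit positive fraction of bone marrow that holds stem cells and multipotent progenitors. Per the labels the background strain was C57BL/6, and the 3 groups carried a GFP-labelled vector without insert, with DNMT3A WT or with DNMT3A R882H. The cells were sorted from transplanted mice, and each group had 3 arrays. All 3 groups share transduction, transplantation and sorting, and 3.67 ng of total RNA was amplified for each array. The sources used here do not give the promoter of the vector, the age of the mice or the number of animals behind a sample. The p-values therefore cover only how far these samples vary, and that variation may be technical. The number of arrays limits the precision of every value.

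DNMT3A places methyl groups on cytosines that are followed by guanine (CpG sites) where no methyl group stood before, and in acute myeloid leukaemia it is often mutated at R882, most commonly to the histidine form studied here. Methylation of a CpG-rich promoter usually goes with a silent gene, while promoters poor in CpG follow this rule less closely. The genes described belong to no single pathway. Dab2, Lyst and Doc2g are tied to membrane traffic, Aldh3b1 detoxifies aldehydes, and Vwa5a is a von Willebrand factor A domain protein whose role is less well defined.

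RefSeq promoter sequences (build GRCm38.p6, 250 bases before to 50 bases after the annotated start) were at hand for 4 of the 6 genes. They are shown because CpG sites are the substrate of the transduced enzyme and because the 4 genes differ widely in them. CpG sites are in capitals, and each sequence runs 5′ to 3′ on the strand of its gene.
Lyst, chr13:13590159-13590458, plus strand: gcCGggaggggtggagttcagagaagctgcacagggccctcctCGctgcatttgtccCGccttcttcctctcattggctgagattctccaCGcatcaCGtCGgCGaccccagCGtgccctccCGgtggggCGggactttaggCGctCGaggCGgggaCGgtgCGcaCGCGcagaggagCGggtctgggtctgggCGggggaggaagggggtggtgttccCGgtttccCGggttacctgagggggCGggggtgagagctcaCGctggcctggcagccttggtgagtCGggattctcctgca
Dab2, chr15:6386498-6386797, plus strand: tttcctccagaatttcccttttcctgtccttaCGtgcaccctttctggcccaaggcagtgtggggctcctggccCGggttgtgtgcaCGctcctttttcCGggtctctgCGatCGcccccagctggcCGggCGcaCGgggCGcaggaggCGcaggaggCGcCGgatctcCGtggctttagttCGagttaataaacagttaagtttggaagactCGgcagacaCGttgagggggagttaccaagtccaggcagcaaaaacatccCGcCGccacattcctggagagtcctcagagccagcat
Aldh3b1, chr19:3929729-3930028, minus strand: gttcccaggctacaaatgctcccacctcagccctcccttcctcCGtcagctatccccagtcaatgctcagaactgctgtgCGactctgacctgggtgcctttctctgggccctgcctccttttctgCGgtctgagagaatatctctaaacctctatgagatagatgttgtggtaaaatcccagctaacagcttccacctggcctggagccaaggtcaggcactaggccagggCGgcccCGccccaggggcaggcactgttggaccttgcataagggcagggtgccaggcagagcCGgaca
Doc2g, chr19:4003135-4003434, plus strand: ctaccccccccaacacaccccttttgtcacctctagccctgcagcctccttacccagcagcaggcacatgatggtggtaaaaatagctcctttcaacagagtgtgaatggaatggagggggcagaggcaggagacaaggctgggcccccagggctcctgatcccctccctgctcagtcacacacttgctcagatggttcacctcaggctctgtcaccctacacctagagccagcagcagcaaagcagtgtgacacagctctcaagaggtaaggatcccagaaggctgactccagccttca
The Lyst promoter held 24 CpG sites, more than 80% of 32851 mouse promoters of the same length. The Dab2 promoter shown held 19, more than 71.9% of them, whereas a second annotated Dab2 start upstream (chr15:6299539-6299838) held 2. The Aldh3b1 promoter held 6 CpG sites and the Doc2g promoter 0, against a median of 7 over all promoters, 94.6% of which held at least 1. The letters GGGCGG, the core of an Sp1 site, overlap a CpG site and were searched on both strands. They occurred 3 times at Lyst, 2 times at Aldh3b1 and 0 times in both Dab2 windows and at Doc2g, and 35.7% of all promoters hold them. CCAAT, on either strand, occurred 1 time at Lyst and in 37.4% of all promoters. These are letters in a window, and methylation was not measured in these samples.

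A few facts of the arrays bear on every value below. Each array lay on 1 of 3 slides. The first held all 3 EV arrays and WT replicate 1, the second WT replicates 2 and 3 with R882H replicates 1 and 2, and the third R882H replicate 3. EV and R882H thus shared no slide, and slide and group cannot be told apart for them, while WT and R882H can be compared within the second slide. The share of coding probes well above background was 60.9% to 64.2% with EV, 63.0% to 69.8% with WT and 64.6% to 69.8% with R882H. The sorting markers Kit and Ly6a and the progenitor genes Cd34 and Flt3 were detected on 9 of 9 arrays. The authors' deposited value table disagrees with the scanner files on which array is which. When its 9 columns were matched to the arrays, 2 fell on their own sample and 7 on a different one, which for 4 columns belonged to a different group. Groups here follow the scanner files. With groups as the table assigns them, 18 probes met the rule for R882H, and 0 of the 6 members were among them.

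The number of lost transcripts was set against the same rule with another group in the place of R882H. Of 15819 coding probes (12161 genes) detected on at least 5 control arrays, 6 were lost with R882H, a share of 0.0379%. With EV as the single group it was 80 of 16282 probes (0.491%), and with WT 12 of 16027 (0.0749%). R882H therefore had the fewest lost transcripts of the 3 groups, with exceptions. Without R882H replicate 1 it lost 28, against 16 for WT. Fewer R882H than WT arrays then had to lack the call, which by itself raises the R882H number. With the groups of the value table R882H lost 18, against 3 for WT. The rule was also applied to the 81 sets of 3 arrays that mix groups. They gave 2 to 119 lost probes with a median of 14, and 21 of the 81 sets gave 6 or fewer. Among the 27 sets with 1 array of each group, the median was 15 and the range 2 to 72. A count of 6 is within what mixed arrays give, and below the median of these sets.

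**Figure D1:**
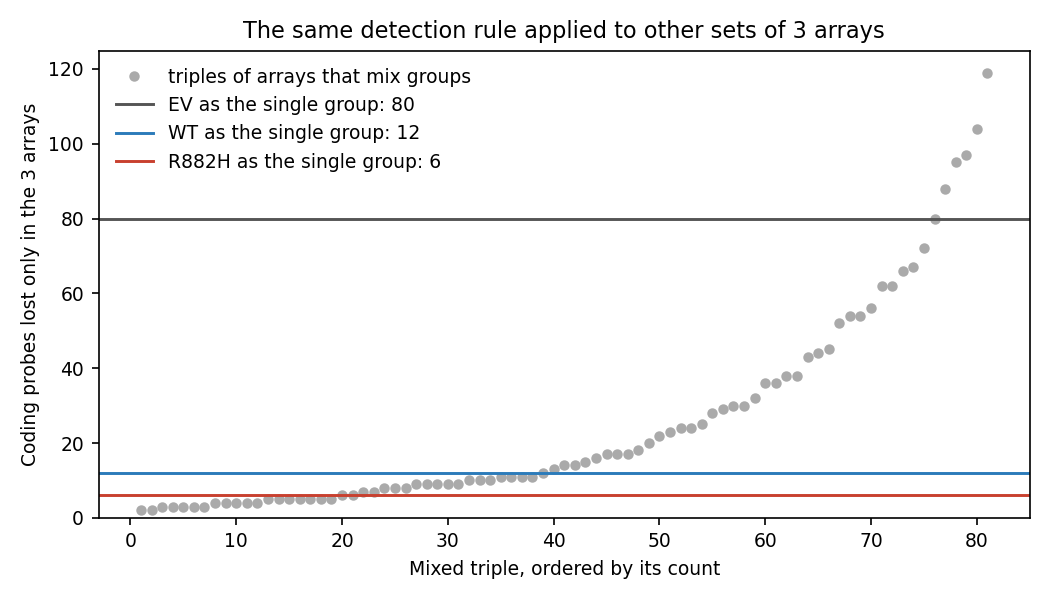
Number of coding probes lost only in a set of 3 arrays (vertical axis, probes) for the 81 sets that mix groups, ordered by that number (grey points), with lines for EV (80), WT (12) and R882H (6) as the single group. The R882H line crosses the low end of the mixed sets, 21 of which gave 6 or fewer.

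The count followed single arrays. Mixed sets that held EV replicate 2, the array with the lowest share of detected coding probes, gave a median of 30 lost probes and never fewer than 8. Mixed sets that held R882H replicate 1, where 69.8% of coding probes were detected as on WT replicate 2, gave a median of 5. The highest number, 119, came from EV replicate 2 with WT replicates 1 and 3. Leaving out R882H replicate 1, so that 2 arrays had to lack the call, raised the R882H number from 6 to 28. It was 17 without R882H replicate 3 and 11 without R882H replicate 2. Leaving out a control array, with 1 missing call still allowed, gave 12, 15 and 10 without EV replicates 1, 2 and 3 and 10, 8 and 11 without WT replicates 1, 2 and 3. All 6 genes met the rule in each of these cases, but leaving out an array this way cannot make a member fail. Their retention is therefore no evidence of robustness. Going the other way, 19 of the 26536 coding probes were detected on all 3 R882H arrays and on 0 controls, against 2 for EV alone and 7 for WT alone. This allows no missing call, so it is not the mirror of the rule that gave 6. With no missing call allowed for lost probes either, the numbers were 1 for R882H, 17 for EV and 1 for WT.

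The 6 members were dim. As log2 signal after subtraction of the 75th percentile of each array, their control means had a median of -2.83, against 0.24 over the 15819 probes, and each mean was above those of only 1.85% to 7.55% of these probes. Their differences, R882H minus controls, ran from -3.17 to -0.97 with a median of -2.02, against -0.04 over all 15819. The size of this median rests on R882H values under the detection limit. It was -0.94 with values raised to the limit of their array and -0.35 with normexp background correction. That correction added an offset of 50 to every intensity, which by itself shrinks the log2 differences of dim probes. Because the size changed this much, the members' order by difference is not given as a result. The 1196 probes no brighter in the controls than Dab2, the brightest member, had a median difference of 0.13, and 36.7% of them were lower with R882H. In 4 of 6 members (Dab2, Lyst and Vwa5a among them) all 3 R882H arrays lay below all 6 controls, and with values raised to the limit 1 did (Vwa5a). Over the 15819 probes 532 did so, or 3.36%, and 322 lay above in the same way. The rule used this contrast, so nothing is read from the members' count. In bulk RNA, fewer cells that express a gene and less of its RNA per cell cannot be told apart.

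**Figure D2:**
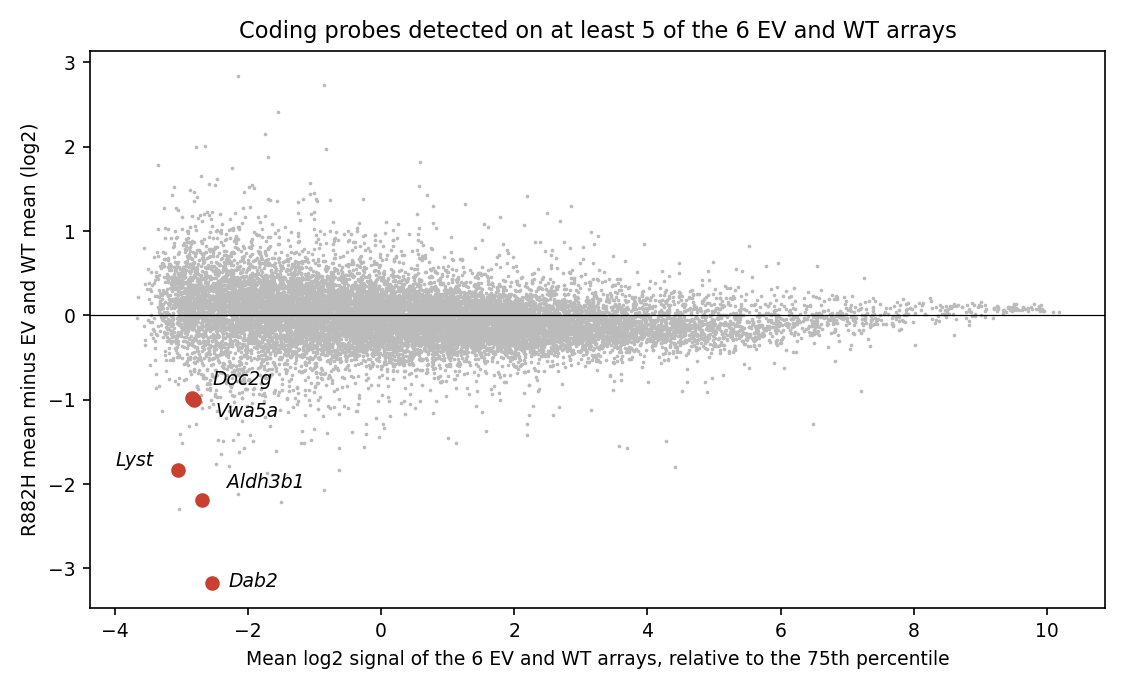
Mean log2 signal of the 6 control arrays relative to the 75th percentile (horizontal axis) against the R882H mean minus the control mean in log2 units (vertical axis) for 15819 coding probes detected on at least 5 control arrays. The named members (red) sit at control means of -3.05 to -2.54, with Dab2 at a difference of -3.17. Of the 18 R882H values of all members, 5 were above their own array's lowest signal well above background, and the others were not.

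Dab2, on chromosome 15, encodes an adaptor that links receptors of the LDL receptor family to clathrin and AP-2 during endocytosis, and in blood it is known from macrophages and megakaryocytes. Its log2 signals were -2.17, -2.76 and -1.65 on the EV arrays, -3.80, -3.63 and -1.20 on the WT arrays and -5.13, -6.10 and -5.88 on the R882H arrays. All R882H arrays lay below all controls as measured. They were under their arrays' limits of -4.14 to -3.69, and WT replicate 1 at -3.80 was below the highest of these limits, so with values raised to the limit the groups overlap. WT replicate 3 was the brightest array, and WT replicate 1 was the control without the call. Scanner intensities were 15.0 to 89.7 in the controls and 3.15 to 6.41 with R882H, on arrays where the lowest intensity well above background was 12.7 to 19.3. The means were -2.20 ± 0.56 with EV, -2.88 ± 1.46 with WT and -5.70 ± 0.51 with R882H (SD, n = 3). The difference from the controls was -3.17 ± 0.57 (SE), or -1.36 with values raised to the limit. Each SE given here comes from the limma fit described below, which draws a probe's spread toward that of all probes. It takes values under the limit as measured, so it does not give their true precision.

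Values below the detection limit are only a bound, so folds were computed against a floor. On each R882H array the probe's signal was raised, where it was lower, to the dimmest signal still called well above background, and the brighter group's mean was divided by the mean of these. On this basis Dab2 was at least 3.26-fold higher with EV, at least 2.03-fold higher with WT and at least 2.57-fold higher in the controls together. Within the second slide, which holds WT replicates 2 and 3 and R882H replicates 1 and 2, the R882H mean lay at -3.20 relative to WT with no overlap. With 1 threshold of -3.44 for all arrays in place of the software's call, Dab2 no longer met the rule, since WT replicates 1 and 2 were both under it.

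Lyst, on chromosome 13, encodes the BEACH domain protein that sets the size of lysosomes and related granules, and its loss gives the beige mouse. The probe that met the rule read -2.82, -3.40 and -2.10 with EV, -3.32, -3.82 and -2.85 with WT and -3.95, -5.95 and -4.76 with R882H. The groups did not overlap, but the gap between WT replicate 2 and R882H replicate 1 was 0.13. EV replicate 2 lacked the call. The difference was -1.84 ± 0.45 (SE), or -0.78 with values raised to the limit, and the controls were at least 1.72-fold higher. A second Lyst probe was brighter and detected on all 9 arrays. It read -1.63, -2.15 and -0.96 with EV, -2.68, -1.97 and -1.04 with WT and -2.77, -3.08 and -2.22 with R882H. Its R882H mean of -2.69 was below the control mean of -1.74, a difference of -0.95, and R882H replicate 3 overlapped WT replicate 1. Lyst RNA was therefore detected in the R882H samples by this probe.

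Doc2g, on chromosome 19, encodes the third double C2 domain protein, whose relatives are calcium sensors for vesicle release. It was the only member detected on all 6 controls. The signals were -2.98, -3.01 and -2.79 with EV, -2.57, -3.59 and -2.14 with WT and -3.76, -3.56 and -4.14 with R882H. R882H replicate 2 was above WT replicate 2, so the groups overlapped, by 0.02. The difference was -0.97 ± 0.29 (SE), and the controls were at least 1.77-fold higher.

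Aldh3b1, on chromosome 19, encodes an aldehyde dehydrogenase that oxidises aldehydes from lipid peroxidation. Its signals were -1.64, -2.95 and -1.04 with EV, -2.34, -5.37 and -2.82 with WT and -5.01, -3.90 and -5.75 with R882H. The groups overlapped, since WT replicate 2 was lower than R882H replicates 1 and 2. The difference from the controls was -2.19 ± 0.72 (SE). Within the second slide, where both WT replicates 2 and 3 lie, it was -0.36, and with slide as a block -0.59. EV was at least 4.06-fold higher than R882H and WT at least 1.31-fold. Slide and group cannot be told apart for the EV part of this difference.

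Vwa5a, on chromosome 9, has 2 probes that disagreed. The probe that met the rule read -3.29, -2.38 and -2.79 with EV, -3.03, -2.52 and -2.84 with WT and -3.94, -3.91 and -3.60 with R882H. The groups did not overlap, with a gap of 0.31, and the difference was -1.01 ± 0.22 (SE), at least 1.99-fold. EV replicate 1 lacked the call although its signal was above that array's lowest signal well above background. The other probe was detected on all 9 arrays and read -1.42, -0.91 and -0.94 with EV, -0.78, -0.42 and -0.77 with WT and -0.97, -0.83 and -0.80 with R882H. On it the R882H mean differed from the controls by 0.01. Vwa5a RNA was thus detected with R882H by this probe. The sources used here do not say which transcripts or exons the probes of Vwa5a and Lyst read.

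**Figure D3:**
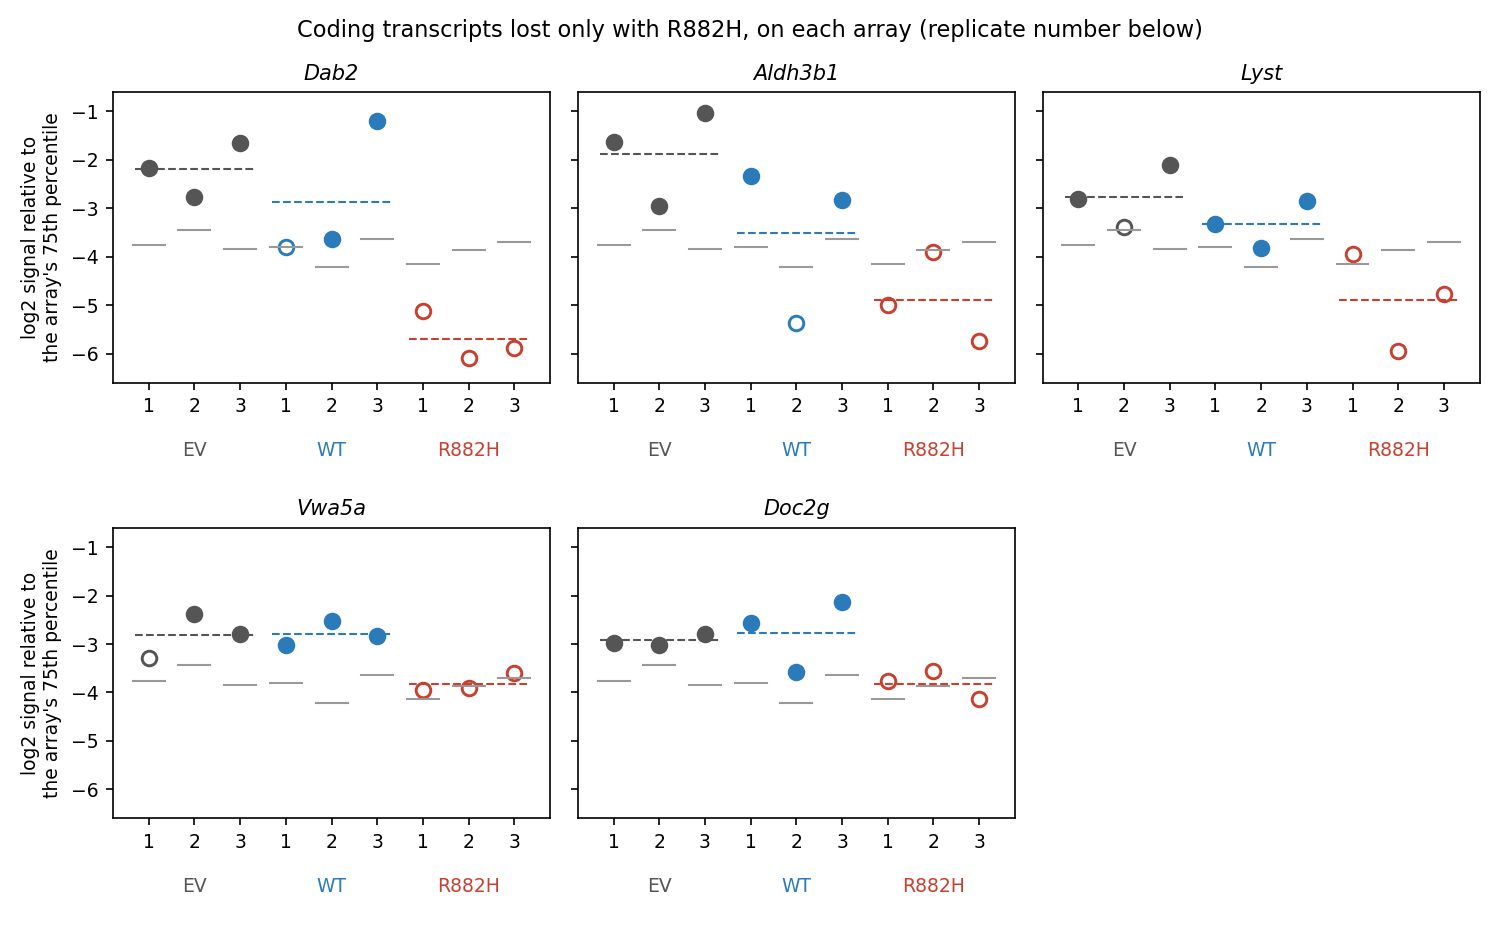
Log2 signal minus that of the array's 75th percentile (vertical axis) of Dab2, Aldh3b1, Lyst, Vwa5a and Doc2g on the 9 arrays, by group and replicate number. Filled points were well above background, open points were not, coloured dashes are group means and grey dashes are each array's lowest signal well above background; the R882H points of Dab2 lie below all its controls, at -5.13 and lower, and the groups of Aldh3b1 and Doc2g overlap.

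**Figure D4:**
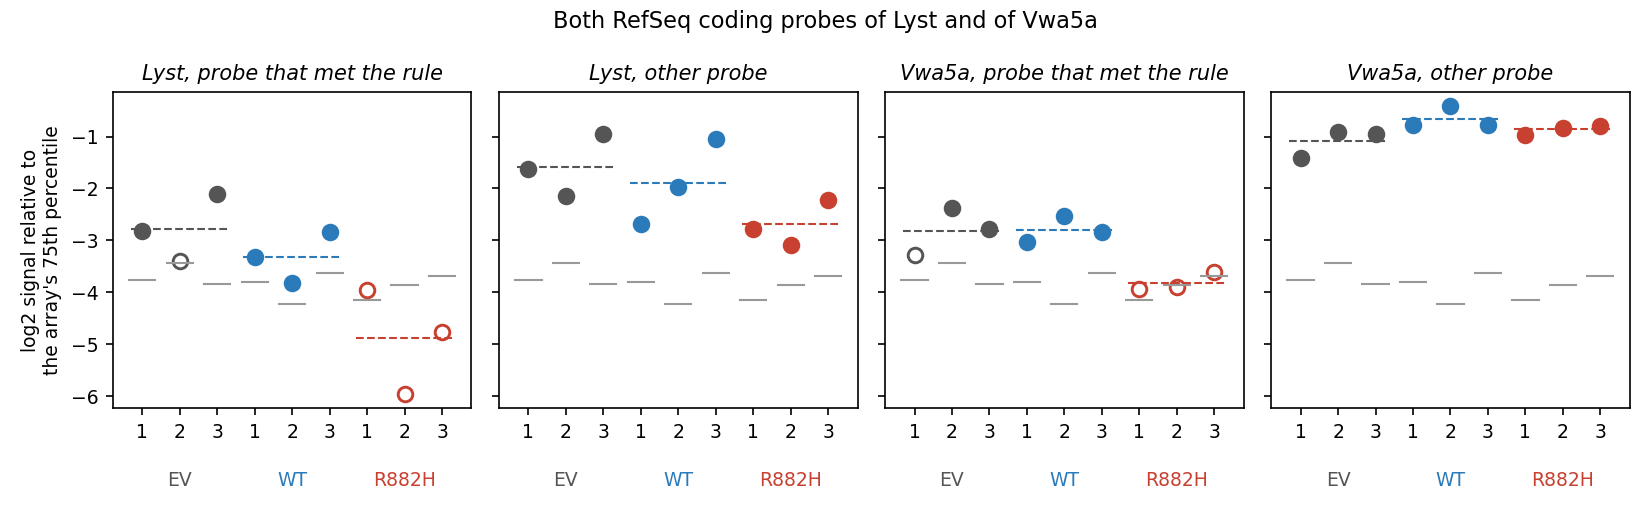
Log2 signal minus that of the array's 75th percentile (vertical axis) of both coding probes of Lyst and of Vwa5a on the 9 arrays, with symbols, group means and detection limits drawn as filled or open points, coloured dashes and grey dashes. The second probes are detected on all 9 arrays, and they differ between R882H and the controls by -0.95 for Lyst and 0.01 for Vwa5a.

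The open points in the plot of members by array are not all under the array's limit. Of the 18 R882H values of the members, 5 were above the lowest signal well above background on their own array, for Lyst on R882H replicate 1, Vwa5a on replicates 1 and 3 and Doc2g on replicates 1 and 2. None of the 18 reached -3.44, the highest such limit among the arrays. The software's less strict call, a signal positive and significant against the local background, was given to 14 of the 18. Aldh3b1, Vwa5a and Doc2g had it on all 3 R882H arrays, Lyst on 2 and Dab2 on 1. With this call in place of the stricter one, 17 probes met the rule and 0 of the 6 genes were among them.

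The edge of the rule was described with the values on both sides of it. Of the 6 members, 5 were detected on exactly 5 controls. Just outside were 38 probes with 5 or 6 detected controls and 1 detected R882H array, which was replicate 1 for 22 of them, replicate 2 for 5 and replicate 3 for 11. A further 15 probes had 4 detected controls and 0 detected R882H arrays. Of the 38, the largest difference as measured was that of Gpd1, the cytosolic glycerol-3-phosphate dehydrogenase. Gpd1 read -2.01, -2.10 and 0.35 with EV, -2.53, -0.16 and -2.55 with WT and -1.86, -4.70 and -4.57 with R882H. Its difference was -2.21, or -1.64 with values raised to the limit, and R882H replicate 1 overlapped the controls. Inside the rule, Vwa5a and Doc2g had the smallest differences as measured, -1.01 and -0.97. These were -0.99 and -0.83 with values raised to the limit, where Lyst was smaller than both at -0.78.

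WT and EV cells were compared with limma over 31240 probes. Of these 6 passed a Benjamini-Hochberg adjusted p of 0.05 (0.0192%), and 1969 had an unadjusted p under 0.05 (6.3%, 1208 higher and 761 lower with WT). With replicate number as a block, for a possible pairing of EV and WT, 0 passed and 2604 had an unadjusted p under 0.05. The rule required detection in EV and WT alike, which limits how far apart the members could lie, so their values are given as a description. Of the 6 members 0 passed, a share that says nothing particular about them when so few probes pass. WT minus EV was -1.63 ± 0.84 (SE) for Aldh3b1, and 3 of 3 WT arrays lay below its EV mean. The groups overlapped, since WT replicates 1 and 3 (-2.34 and -2.82) were above EV replicate 2 (-2.95). WT replicate 2, at -5.37, was the lowest. The Aldh3b1 difference was -0.70 without WT replicate 2 and -0.46 with slide as a block. For the others described, WT minus EV was -0.68 ± 0.65 for Dab2, -0.56 ± 0.52 for Lyst, 0.16 ± 0.34 for Doc2g and 0.02 ± 0.25 for Vwa5a. The Dab2 difference also depended on single arrays. It was -0.22, -0.30 and -1.52 without WT replicates 1, 2 and 3, and -1.61 with slide as a block.

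The families of the members described were compared after their values had been seen. Of 17 detected aldehyde dehydrogenase probes, 16 were detected on all R882H arrays, 8 were lower and 9 higher, with a median of 0.11. Aldh3b3, a close relative of Aldh3b1, differed by 0.11, and Aldh1a1, an enzyme used to mark stem cells, by 0.54. Aldh4a1, a mitochondrial enzyme of proline breakdown that was detected on all 9 arrays, differed by -1.09. Of 14 detected BEACH domain probes, 13 were detected on all R882H arrays, with 7 lower, 7 higher and a median of 0.03. Of 6 detected Vwa probes, 5 were, with 4 lower, 2 higher and a median of -0.13. Dab1, the other Disabled adaptor, differed by 0.57, and Doc2a by -0.17. In each of these families the member's probe was the 1 that met the rule.

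Dab2 was the only member held by any of 17 gene lists and 18 symbol families, in the lists for clathrin endocytosis and for macrophages and dendritic cells. Of 44 detected probes of clathrin endocytosis genes, 22 were lower and 22 higher with R882H, with a median of -0.00, and Dab2 was the 1 member among them. Of 11 detected probes of the macrophage and dendritic list, 3 were lower and 8 higher, with a median of 0.31, against -0.04 over all 15819 probes. The summed level of this list, in multiples of the array's 75th percentile, was 31.1 to 35.8 with EV, 33.0 to 35.3 with WT and 37.0 to 38.1 with R882H. Siglech, a gene of plasmacytoid dendritic cells with log2 signals of 4.54 to 4.86, made up most of that sum. Of 22 list genes on the array, 11 to 12 were detected with EV, 8 to 16 with WT and 9 to 14 with R882H, and the list was mixed in what it showed. C1qb was detected on 9 of 9 arrays, C1qa, Vcam1 and Slc40a1 on 8, Adgre1 on 7 and Marco and Axl on 6, while Mertk, Mrc1, Timd4, Vsig4 and Clec4f were detected on 0. A second Adgre1 probe was detected on 4 controls and 0 R882H arrays. Whether macrophage RNA had a part in the Dab2 signal was not tested.

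Other lineage lists moved beside the members. Of 26 detected probes of the granulocyte and monocyte list, 22 were lower and 4 higher with R882H, with a median of -0.59, and the summed level was 646 to 1103 with EV, 638 to 958 with WT and 572 to 736 with R882H. Csf3r, at log2 signals of 7.79 to 7.97, and Itgam, at 7.43 to 7.81, made up a large part of these sums. They differed between R882H and the controls by only 0.06 and -0.03. Of the megakaryocyte list, 18 of 18 detected probes were higher with R882H, with a median of 0.98, and the summed level was 42.6 to 61.5 with EV, 37.8 to 57.2 with WT and 65.9 to 86.6 with R882H. Over all 15819 probes detected on at least 5 controls, 56.0% were lower with R882H. Dab2, known from megakaryocytes, stood lower with R882H, near the detection limit, while the list for that lineage stood higher. Mature neutrophil genes summed to 47.2 on EV replicate 3 and 12.9 on WT replicate 3, against at most 4.03 on the other 7 arrays. These were also the brightest arrays for Dab2, at -1.65 and -1.20. EV replicate 3 was the brightest for Aldh3b1 and Lyst, and WT replicate 3 for Doc2g, whereas the brightest arrays for Vwa5a were EV replicate 2 and WT replicate 2, at -2.38 and -2.52. The part of these lineages in the members' values was not tested. None of the members is in these lists. Without EV replicate 3 the median difference of the 6 members was -1.76, and without WT replicate 3 it was -1.93.

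**Figure D5:**
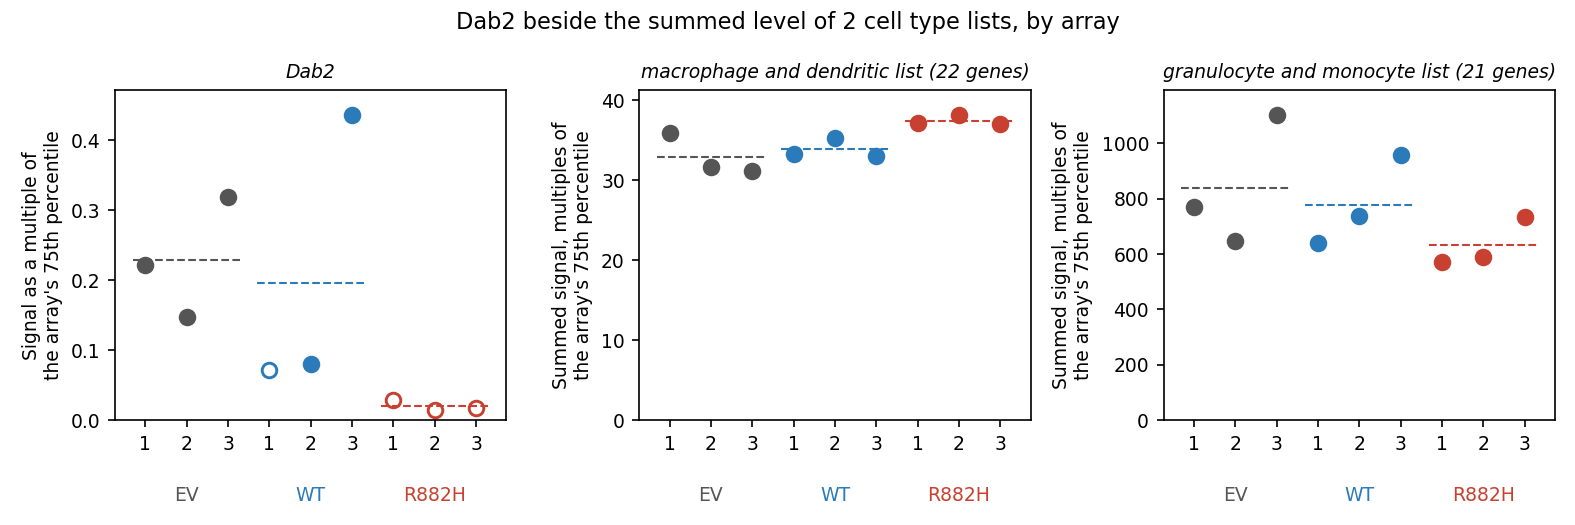
Signal of Dab2 (left) and summed signal of the macrophage and dendritic list (middle, 22 genes on the array) and of the granulocyte and monocyte list (right, 21 genes), as multiples of the array's 75th percentile on linear axes from 0, for the 9 arrays by group; dashes are group means and open Dab2 points were not well above background. Dab2 is near 0 on the 3 R882H arrays, where the macrophage sum is 37.0 to 38.1 and the granulocyte and monocyte sum 572 to 736.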

How the data were processed

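RNA of 9 LSK samples was measured on 1-colour (Cy3) Agilent arrays of design 028005. Per the file headers, each deposited spot intensity had its background subtracted by Agilent Feature Extraction 10.10.1.1 and stood beside a median pixel intensity, a local background intensity and calls for well above background and outliers. Saturated spots numbered 0, and 154 to 184 outlier spots per array were left out. Over arrays, median pixel signals were 79 to 88 and median local backgrounds 24 to 29. The deposited log2 values of the authors' table served only as an alternative, and the sources used here do not say how it was made. It matched the arrays for 41854 of its 41889 entries.

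Processed intensities were taken to log2, the array's 75th percentile was subtracted and a probe's spots were averaged (each member has 1 spot). A probe was detected where most of its spots were well above background. RefSeq accessions gave a symbol to 26083 of 26536 coding probes. WT and EV were compared with limma 3.58.1 in R 4.3.3 (lmFit and eBayes on all 9 arrays, 6 residual and 2.71 prior degrees of freedom) over probes detected on all 3 arrays of a group, after the fit had been tested on simulated data.

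The members, 17 gene lists and 18 symbol families were chosen with earlier results of these data known. By the rule for names, the members and the 2 probes just outside the rule with the largest difference are named, except that some of these genes are not reported here. The 17 lists were LSK and stem cell, erythroid, megakaryocyte, granulocyte and monocyte, mature neutrophil, macrophage and dendritic, mast cell, B lineage, T and NK lineage, endothelial and stromal, DNA methylation, clathrin endocytosis, cilium, interferon response, p53 targets, germline and imprinted genes. Apart from Dab2 they held 0 members. Same-numbered deviations from the group means of EV and WT correlated at 0.102, 0.186 and 0.24. Differently numbered arrays were not compared in this way, so whether the numbers pair the samples was not tested, and no label states it. The reported fit is unpaired. Replicate number as a block was an alternative, as were other calls, scalings, slides and groups.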

Additional observations from a re-analysis of the deposited data

How the results depend on the processing

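With a signal positive and significant as the call, R882H lost 17 probes and WT 26. Requiring all 6 other arrays gave 1 for R882H (Doc2g), 17 for EV and 1 for WT, and at least 4 gave 21, 234 and 49. Allowing 1 detected array in the single group gave 44, 351 and 145. With 1 threshold for all arrays EV lost 46 and WT 29. Without number 3 in any group, an alternative chosen after seeing the data, the numbers were 44, 620 and 101. With the groups of the value table, also added then, R882H lost 18 and WT 3. Leaving out each array in turn gave 8 to 28 for R882H, 94 to 207 for EV and 16 to 98 for WT. R882H had the lowest of the 3 numbers under these alternatives, except in the cases given next. It tied with WT when all 6 arrays were required, and had a higher number than WT with the table's groups. Without R882H replicate 1, when fewer R882H than WT arrays had to lack the call, it was 28 against 16 for WT.

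The median difference of the members was -0.35 with normexp (offset 50), -0.94 with values floored at the detection limit, -1.43 within the second slide and -1.03 with the table's groups. The members without overlap numbered 2, 1 and 0 with normexp, the floor and the table's groups. For single genes 125 of 144 alternative values moved by less than the SD of the gene's control arrays, EV and WT pooled. Another 19 moved by more, and 0 changed sign. This SD includes any difference between EV and WT, so it can exceed the spread between replicates. Values with replicate number as a block equalled the main ones, as they must when every group holds each number. The genes were selected for missing calls or low values with R882H, so these counts are no evidence of stability.

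The limma count for WT against EV was 0 with normexp, quantile scaling, no filter, probes detected on all 9 arrays, EV and WT arrays alone, slide as a block or array weights, 7 with scaling to the array median, 1 with the table's groups and 0 to 1 without single arrays. With replicate number as a block, for a possible pairing, it was 0, and 0 members passed under any alternative run. Probes detected on all 9 arrays hold no member. With slide as a block, overlap between the groups was not computed. The members lie at the detection limit: their R882H intensities were 3.15 to 18.3, where the lowest intensity well above background was 12.7 to 15.0.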
